A study of Caenorhabditis elegans with 12 samples.

Results

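The nas genes of Caenorhabditis elegans encode nematode astacins, a family of secreted zinc metalloproteases. The family was followed in whole-worm RNA sequencing as every protein-coding gene of the count table whose name is nas and a number, with 1 astacin left out by the rule. The rule found 36 of the 46739 genes in the table. They carry 35 distinct names, since nas-2 stands for 2 loci. Of these 36 genes, 27 had enough reads to be tested and 9 did not, and 17 of the 27 had at least 10 counts in every library.

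The libraries carry 4 genotype labels with 3 biological replicates each. They are spr-4;spr-3;daf-2, then the daf-2 mutant, then the double mutant spr-4;spr-3, and last N2, the wild-type laboratory strain. daf-2 encodes the insulin/IGF-1 receptor, and the products of spr-3 and spr-4 are zinc-finger proteins resembling REST, a repressor of neuronal genes in mammals. The series concerns the control of lifespan by neural excitation and REST. Every sample was a pool of 100 whole worms grown at 20 °C and taken 24 h after the L4 stage, given as day 2. The alleles are not given in the labels. The libraries labelled spr-4;spr-3;daf-2 are called triple-labelled below and the spr-4;spr-3 animals the spr double mutant.

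Astacins are named after a digestive protease of the crayfish. They are made as inactive precursors, pass through the secretory pathway and cut proteins outside the cell, with substrates in the cuticle, the eggshell and the extracellular matrix. In C. elegans, nas-6 and nas-7 act in building the grinder of the pharynx, nas-36 is needed for the animal to shed its old cuticle at the moult, and nas-38 affects the sleep-like quiescence that goes with each moult. nas-39 has the domain order of the tolloid and BMP1 proteases, which process procollagens and growth factor inhibitors in other animals. Most of the other nas genes have no role that is given here.

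Library totals ran from 30837773 to 48894725 counts, so that a single read was worth 0.0198 to 0.0337 CPM (reads scaled to the library size), and a gene at 0 could have a level of up to 0.0595 to 0.101 CPM (3 counts, counting error only). The spr-3 transcript had 16.4 ± 1.24 CPM in triple-labelled animals and 17.5 ± 1.44 CPM in daf-2, with 9.22 ± 0.779 CPM in spr double mutants and 17.3 ± 1.06 CPM in N2 (SD, n = 3). The double mutant lay -0.91 from N2 on the log2 scale (edgeR adjusted p = 3.2e-08), and triple-labelled animals lay -0.10 from daf-2 (edgeR adjusted p = 0.338). The triple-labelled libraries thus did not show the lower spr-3 level of the double mutant, and every spr comparison that uses them rests on their label. spr-4 was lower in both, at -0.21 against daf-2 and -0.25 against N2 on the log2 scale (edgeR adjusted p = 0.000565 and 0.000119). The daf-2 libraries also stood apart in their share of ribosomal RNA reads, which averaged 0.0431% in triple-labelled, 0.166% in daf-2, 0.0405% in double-mutant and 0.0391% in N2 libraries. All 12 lists of marker genes for tissues of the worm had every gene with a read in every genotype.

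The summed level of the nas transcripts was higher in all 9 mutant libraries, at 165 CPM or more, than in the N2 libraries, at 135 CPM or less, and was not tested. Their summed level was 196 ± 5.57 CPM in the triple-labelled libraries, 168 ± 5.10 CPM in daf-2, 172 ± 6.90 CPM in spr double mutants and 130 ± 3.88 CPM in N2 (SD, n = 3). The 3 members with the most reads, nas-11, nas-20 and nas-9, held a median of 77.2% of this sum in triple-labelled, 79.1% in daf-2, 79.9% in double-mutant and 73.9% in N2 libraries. Compared per kilobase of exon, nas-11 (WBGene00003530, chromosome X, 6713577 to 6716357 in WBcel235) was the most abundant, at 43.4 CPM per kilobase over all 12 libraries. nas-20 (WBGene00003539, chromosome V, 11470925 to 11472309) followed at 23.7 and nas-9 (WBGene00003528, chromosome V, 4836027 to 4840013) at 13.6. nas-5 had 4.39, nas-39 2.03, nas-31 1.91 and nas-7 1.39 CPM per kilobase, and the lowest tested member had 0.106.

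**Figure D1:**
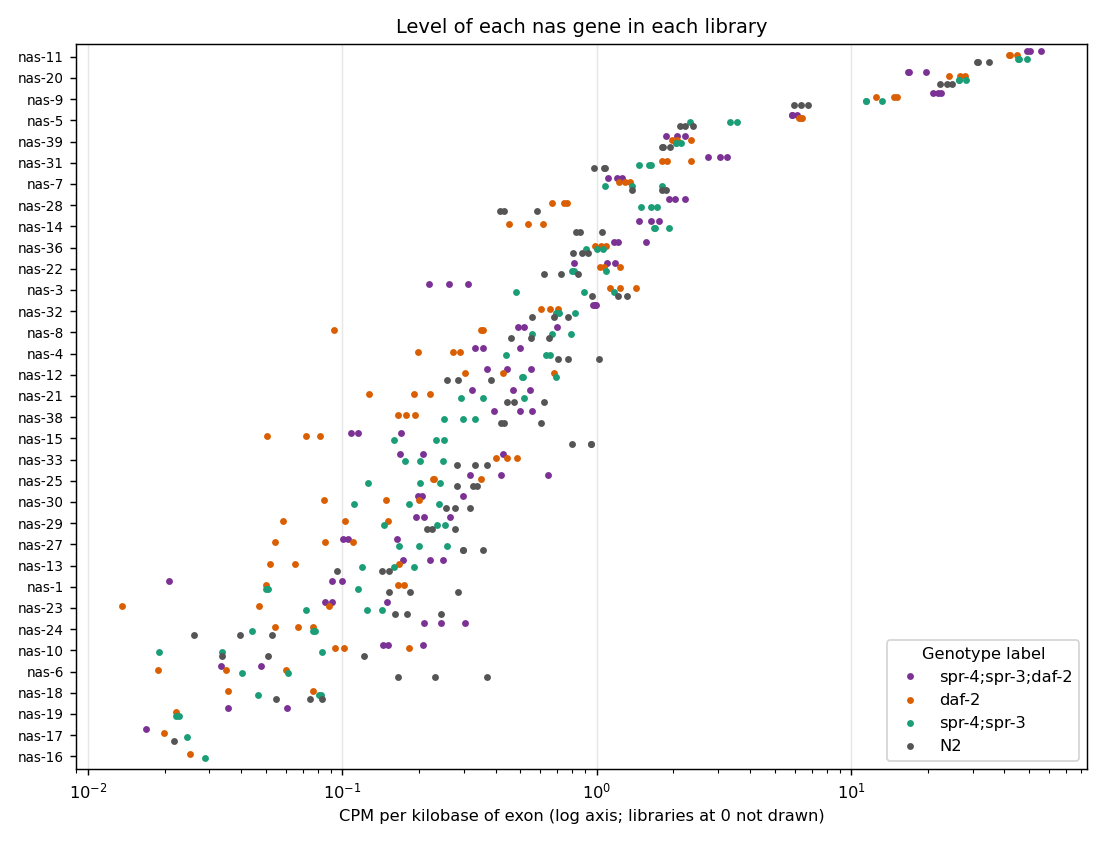
Level of each nas gene with at least 1 read, in CPM per kilobase of exon on a log axis, with 1 point per library coloured by genotype label; libraries at 0 are not drawn. Within each of the 12 libraries nas-11, nas-20 and nas-9 lie to the right of every other member, and nas-16 to nas-19, at the foot of the plot, have few points drawn.

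The genes are spread over all 6 chromosomes, with 14 of the 36 on chromosome V and 7 on X. A pair of tight clusters on V had very different levels. nas-16 to nas-19 lie within 10391 bp (V, 11392320 to 11402710) and had 28 reads in all over the 12 libraries. nas-20 to nas-22 lie within 7083 bp (V, 11470925 to 11478007) and had 13339. Members of this second cluster did not share a pattern, since nas-20 was lowest in the triple-labelled libraries, nas-21 was lowest in daf-2 and nas-22 had its lowest mean in N2. Both nas-2 loci (V, 2466762 to 2468504 and 2358801 to 2360543, each with 819 bp of exon) had no read in any library. How reads matching several places were counted is not given, so these zeros do not show that the genes were silent. Exons of nas-39 (276 bp), nas-4 (437 bp) and nas-22 (16 bp) overlap those of another gene on the same strand, and 10 members overlap a gene on the other strand, the longest being 163 bp of nas-11 with smf-2. The strand setting of the counting is not stated, and the reads of those genes are uncertain to that extent.

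Ranked by mean level, the genotype that was highest for a gene varied over the 27 tested members. The triple-labelled libraries were highest for 9, daf-2 for 5, the spr double mutant for 4 and N2 for 9. The lowest place was held most often by daf-2 (12 members) and N2 (10), against 3 for the triple-labelled libraries and 2 for the double mutant. These places are taken whether or not neighbouring genotypes differ. They were not counted over all tested genes, so they cannot be read as particular to the family.

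**Figure D2:**
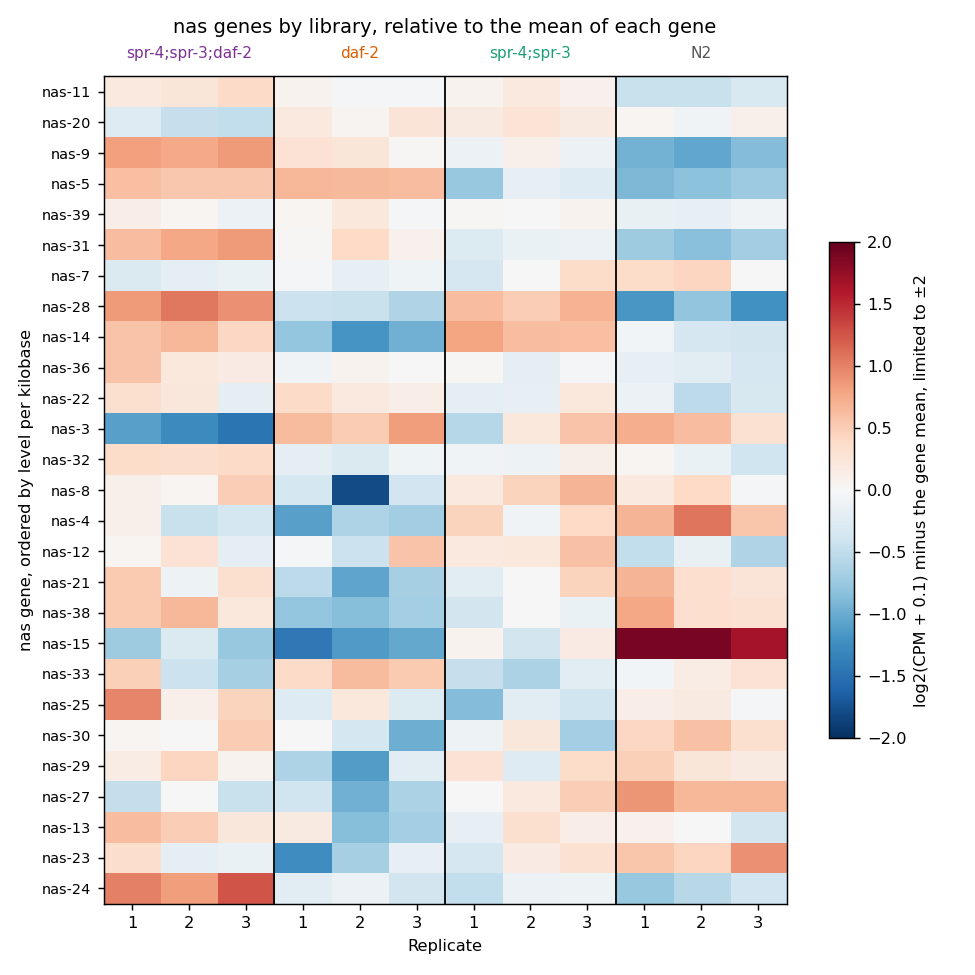
The 27 tested nas genes (down, from the highest to the lowest level per kilobase) in the 12 libraries (across, 3 replicates per genotype label), coloured by log2(CPM + 0.1) minus the mean of each gene and limited to ±2. nas-15 is darkest red in N2 and blue in daf-2, and nas-3 and nas-24 stand out in the triple-labelled libraries in blue and red.

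Against N2, daf-2 animals had more transcript of nas-9, nas-5, nas-31 and nas-11 and less of nas-15, nas-27, nas-4, nas-21, nas-38 and nas-29, among others. Of the 27 tested members 6 were higher and 10 lower, 59.3% in all, beside 54.3% of all 15764 tested genes (27.4% higher and 26.9% lower). The 10 include nas-23 and nas-27, which entered the test through N2, where they were high. The median log2 fold change was -0.04 over the members and 0.00 over all genes. At an unadjusted p below 0.05 the family had 8 higher and 11 lower. The share of all tested genes at that threshold was not counted. The ribosomal RNA share given above was higher in daf-2 than in N2. The summed level of the 9 sperm markers, all with reads in every genotype, was 14.15 to 18.3 CPM in the triple-labelled libraries, 2.54 to 3.30 CPM in daf-2, 16.1 to 17.3 CPM in the double mutant and 19.8 to 27.9 CPM in N2. That of the 7 pharynx gland markers, also all read in every genotype, was 273.5 to 302.3 CPM in the triple-labelled libraries, 146.5 to 156.8 CPM in daf-2, 57.5 to 77.5 CPM in the double mutant and 37.98 to 38.1 CPM in N2. daf-2 was thus lowest of the genotypes for the sperm sum and above N2 for the gland sum. The part of the ribosomal RNA share and of either marker sum in these counts was not tested. In whole-worm RNA, fewer cells of a type and less RNA per cell cannot be told apart.

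nas-15 (WBGene00003534, chromosome X, 777721 to 780533) had the largest log2 fold change of the 27 tested members in this comparison. It had 0.233, 0.346 and 0.22 CPM in the triple-labelled libraries and 0.102, 0.146 and 0.166 CPM in daf-2, with 0.472, 0.322 and 0.508 CPM in the spr double mutant and 1.92, 1.93 and 1.61 CPM in N2. Every N2 library was above every mutant library, and daf-2 was lowest. The log2 fold change of daf-2 against N2 was -3.70 (SE 0.28, edgeR adjusted p = 3.96e-10). nas-27 (WBGene00003545, chromosome II, 1175925 to 1179323) had 0.163, 0.266 and 0.171 CPM in the triple-labelled libraries and 0.179, 0.0878 and 0.138 CPM in daf-2, with 0.27, 0.322 and 0.418 CPM in the spr double mutant and 0.575, 0.482 and 0.484 CPM in N2. N2 was again above all mutant libraries, and the log2 fold change of nas-27 in daf-2 against N2 was -1.90 (SE 0.37, edgeR adjusted p = 0.000151). It had 16 to 29 reads in the N2 libraries and 3 to 7 in daf-2. Only N2 had 10 counts of nas-27 in every library, so it entered the test through the group in which it was high. nas-23 (WBGene00003542, chromosome II, 7491267 to 7493699) had 0.279, 0.16 and 0.171 CPM in the triple-labelled libraries and 0.0256, 0.0878 and 0.166 CPM in daf-2, with 0.135, 0.234 and 0.269 CPM in the spr double mutant and 0.337, 0.301 and 0.457 CPM in N2. The daf-2 and N2 libraries did not overlap, at 1 to 6 reads and 10 to 17 reads, and the log2 fold change was -1.96 (SE 0.49, edgeR adjusted p = 0.00176). nas-23 reached 10 counts in all N2 libraries and in 1 other, so it entered the test through the group in which it was high.

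nas-4 (WBGene00003523, chromosome III, 6411578 to 6415656) followed a graded order. It had 1.16, 0.771 and 0.83 CPM in the triple-labelled libraries and 0.46, 0.673 and 0.635 CPM in daf-2, with 1.52, 1.03 and 1.46 CPM in the spr double mutant and 1.79, 2.38 and 1.64 CPM in N2. All daf-2 libraries were lowest and all N2 libraries highest, with the triple-labelled and double-mutant libraries between them and overlapping each other. The log2 fold change of daf-2 against N2 was -1.71 (SE 0.23, edgeR adjusted p = 2.12e-06). nas-21 (WBGene00003540, chromosome V, 11472564 to 11473899) had 0.629, 0.372 and 0.537 CPM in the triple-labelled libraries and 0.256, 0.146 and 0.221 CPM in daf-2, with 0.337, 0.41 and 0.597 CPM in the spr double mutant and 0.714, 0.542 and 0.511 CPM in N2. The daf-2 libraries lay below all 9 others, with a log2 fold change against N2 of -1.501 (SE 0.34, edgeR adjusted p = 0.00081). nas-29 (WBGene00003547, chromosome II, 5138519 to 5142036) had 0.419, 0.532 and 0.391 CPM in the triple-labelled libraries and 0.204, 0.117 and 0.304 CPM in daf-2, with 0.472, 0.293 and 0.508 CPM in the spr double mutant and 0.556, 0.452 and 0.43 CPM in N2. daf-2 and N2 did not overlap, while the double mutant overlapped both. Its log2 fold change in daf-2 against N2 was -1.199 (SE 0.36, edgeR adjusted p = 0.00691). nas-14, nas-8 and nas-30 were lower as well, with log2 fold changes of -0.78, -1.02 and -0.95 (edgeR adjusted p = 0.00052, 0.00936 and 0.0117).

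Among the members with a known role, nas-38 (WBGene00003554, chromosome X, 558157 to 563708), the gene of moult-linked quiescence, was lower in daf-2. It had 1.14, 1.28 and 0.903 CPM in the triple-labelled libraries and 0.409, 0.38 and 0.442 CPM in daf-2, with 0.573, 0.762 and 0.687 CPM in the spr double mutant and 1.39, 0.994 and 0.968 CPM in N2. daf-2 was lowest, the double mutant next, and the triple-labelled libraries overlapped N2. daf-2 differed from N2 by a log2 fold change of -1.46 (SE 0.25, edgeR adjusted p = 3.14e-05). nas-36 (WBGene00003552, chromosome I, 7527224 to 7531715), the moulting protease, did not pass this test. It had 3.52, 2.74 and 2.64 CPM in the triple-labelled libraries and 2.22, 2.46 and 2.35 CPM in daf-2, with 2.39, 2.05 and 2.27 CPM in the spr double mutant and 2.08, 1.99 and 1.83 CPM in N2. Its triple-labelled libraries were above all others, and daf-2 lay above N2 without overlap at a log2 fold change of 0.25 (SE 0.15, edgeR adjusted p = 0.168). The tolloid-like nas-39 (WBGene00003555, chromosome X, 16456927 to 16471333) had 7.76, 7.21 and 6.49 CPM in the triple-labelled libraries and 7.21, 8.13 and 6.9 CPM in daf-2, with 7.15, 7.12 and 7.43 CPM in the spr double mutant and 6.35, 6.29 and 6.72 CPM in N2. For nas-39 the daf-2 and double-mutant libraries lay above N2 without overlap and the triple-labelled libraries overlapped N2, yet none of the 6 comparisons was called for it with all libraries. Without daf-2 replicate 3 it was higher in daf-2 than in N2 by 0.26 (edgeR adjusted p = 0.0343).

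The grinder genes nas-6 and nas-7 had their highest mean level in N2. nas-6 (WBGene00003525, chromosome IV, 17486842 to 17490779) had too few reads for the filter. Its counts were 3, 0 and 2 in the triple-labelled libraries, 2, 3 and 1 in daf-2 and 0, 2 and 3 in spr double mutants, against 17, 18 and 9 in N2. Every N2 library had more nas-6 reads than any mutant library. In the fit without a filter on low counts its log2 fold changes against N2 were -3.08 in the triple-labelled libraries, -2.68 in daf-2 and -2.78 in the double mutant (edgeR adjusted p = 6.49e-06, 9.35e-05 and 0.000152). nas-7 (WBGene00003526, chromosome II, 7400545 to 7402725) had 1.49, 1.62 and 1.68 CPM in the triple-labelled libraries and 1.81, 1.64 and 1.74 CPM in daf-2, with 1.45, 1.85 and 2.42 CPM in the spr double mutant and 2.42, 2.53 and 1.86 CPM in N2. For nas-7 the triple-labelled and daf-2 libraries lay below N2 and the double mutant overlapped it. The log2 fold change of triple-labelled against N2 libraries was -0.51 (SE 0.17, edgeR adjusted p = 0.0128), and that of daf-2 against N2 was -0.39 (SE 0.17, edgeR adjusted p = 0.0621). The first was not called without N2 replicate 1 or 2 (adjusted p = 0.0557 and 0.057), and the second was called at -0.49 without N2 replicate 3 (adjusted p = 0.0259). All 6 pharynx muscle markers had reads in every genotype, and their summed level was 92.7 to 105.6 CPM in the triple-labelled libraries, 87.5 to 89.2 CPM in daf-2, 107.3 to 119.3 CPM in the double mutant and 158.5 to 166.6 CPM in N2. The part of this level in the nas-6 and nas-7 values was not tested.

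Of the members that were higher in daf-2, nas-11 and nas-9 are among the 3 most abundant per kilobase. nas-9 had 39.4, 37.7 and 40.5 CPM in the triple-labelled libraries and 27.4, 26.5 and 22.6 CPM in daf-2, with 20.6, 23.8 and 20.5 CPM in the spr double mutant and 11.5, 10.8 and 12.2 CPM in N2. Every N2 library was below every mutant library, and daf-2 overlapped the double mutant. nas-9 was higher in daf-2 than in N2 by 1.15 (SE 0.078, edgeR adjusted p = 5.92e-11). nas-5 (WBGene00003524, chromosome I, 9886189 to 9888224) had 7.15, 6.78 and 6.83 CPM in the triple-labelled libraries and 7.44, 7.37 and 7.23 CPM in daf-2, the upper pair of groups. It had 2.7, 4.13 and 3.88 CPM in the spr double mutant and 2.46, 2.59 and 2.77 CPM in N2, which overlapped by 1 library. The log2 fold change of daf-2 against N2 was 1.499 (SE 0.12, edgeR adjusted p = 9.54e-10). nas-31 and nas-28 were higher by 0.94 and 0.63, and nas-11 and nas-22 by 0.40 and 0.58. Of the 16 calls in this comparison 3 were lost when a single library was left out, with 13 kept throughout. nas-8 was lost without daf-2 replicate 2 (log2 fold change -0.62, adjusted p = 0.0673), nas-30 without daf-2 replicate 3 (adjusted p = 0.0823), and nas-22 without daf-2 replicate 1 or N2 replicate 2 (adjusted p = 0.076 and 0.0706).

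**Figure D3:**
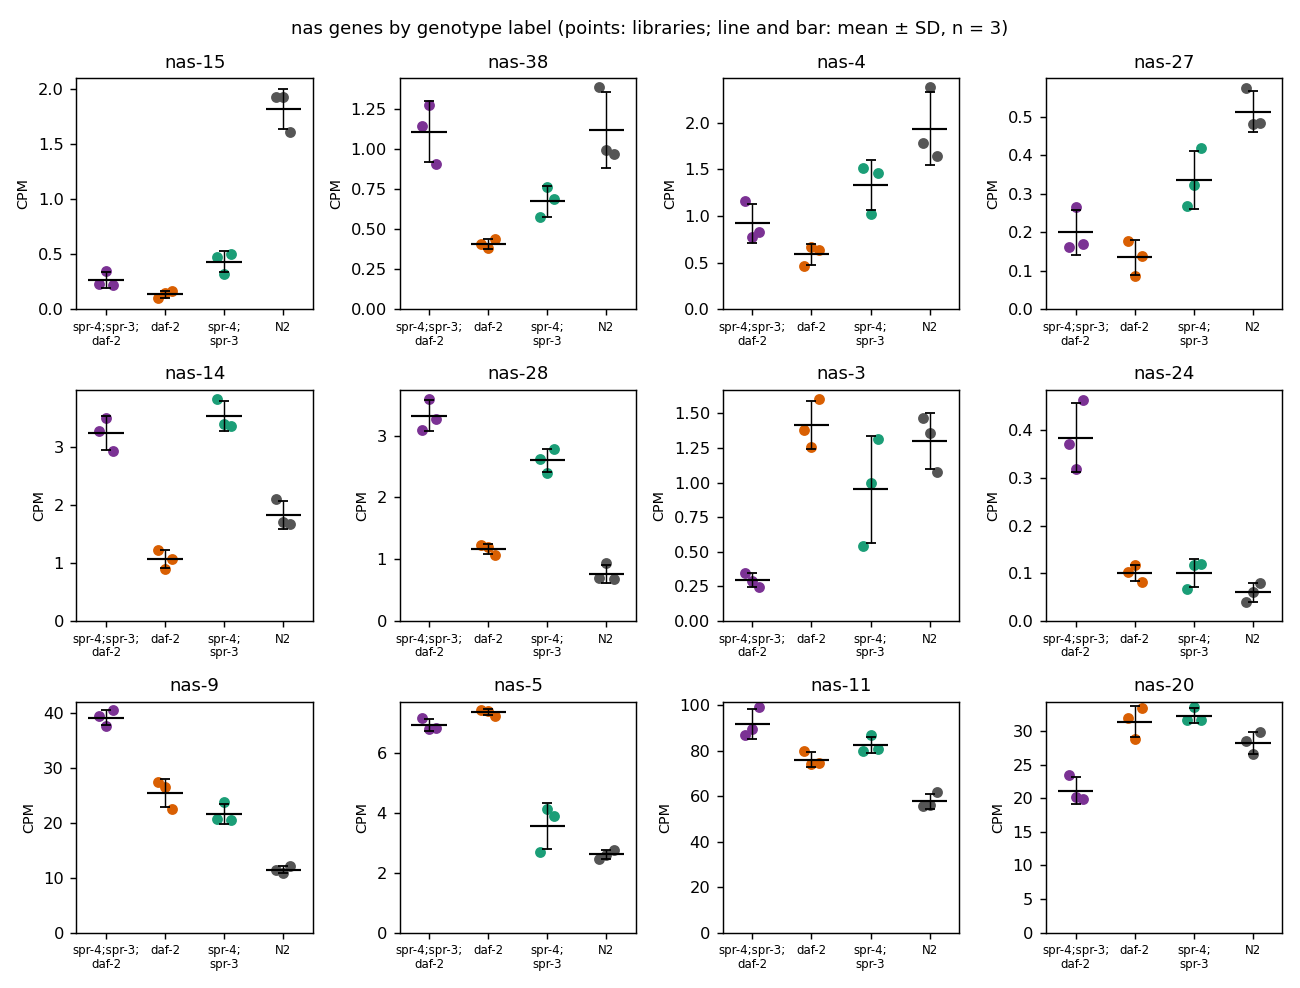
CPM of 12 nas genes by genotype label, with points for libraries and a line and bar for mean ± SD (n = 3), each panel starting at 0. nas-15 and nas-27 have their highest points in N2, nas-24, nas-9 and nas-11 in the triple-labelled libraries, and nas-3 and nas-20 have their lowest points in the triple-labelled libraries.

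Between the spr double mutant and N2 the share of members called was near that of all tested genes. Of the 27 tested, 8 were higher and 3 lower (40.7% called), beside 46.5% of all tested genes (24.6% higher and 21.9% lower). The median log2 fold change was 0.17 over the members and 0.02 over all genes. nas-28, nas-14, nas-12 and nas-9 had the larger rises, and nas-15, nas-38 and nas-4 were lower. Without N2 replicate 1 only 1 member was lower, and without triple-labelled replicate 1, which shares the fit, 5 were.

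nas-28 (WBGene00003546, chromosome III, 6180962 to 6183218) had 3.1, 3.59 and 3.27 CPM in the triple-labelled libraries and 1.23, 1.2 and 1.08 CPM in daf-2, with 2.63, 2.4 and 2.78 CPM in the spr double mutant and 0.694, 0.933 and 0.672 CPM in N2. The 4 genotypes did not overlap for nas-28, and its log2 fold change of double mutant against N2 was 1.78 (SE 0.17, edgeR adjusted p = 3.73e-08). nas-14 (WBGene00003533, chromosome IV, 13170541 to 13174144) had 3.28, 3.51 and 2.93 CPM in the triple-labelled libraries and 1.23, 0.907 and 1.08 CPM in daf-2, with 3.84, 3.4 and 3.37 CPM in the spr double mutant and 2.1, 1.72 and 1.67 CPM in N2. The double mutant and triple-labelled libraries were above N2, and daf-2 was below it, for nas-14. Its log2 fold change in the double mutant against N2 was 0.93 (SE 0.14, edgeR adjusted p = 2.03e-05). nas-11 had 86.9, 89.4 and 99.4 CPM in the triple-labelled libraries and 79.8, 74.3 and 74.5 CPM in daf-2, with 80.1, 86.8 and 81 CPM in the spr double mutant and 55.6, 56.1 and 61.7 CPM in N2. N2 was lowest for nas-11 and no pair of genotypes overlapped, although the double mutant came within 1 CPM of a triple-labelled library above it and of a daf-2 library below it. The log2 fold change of the double mutant against N2 was 0.52 (SE 0.054, edgeR adjusted p = 1.57e-07). nas-9 and nas-31 were higher by 0.92 and 0.59. nas-12, nas-5 and nas-20 were called higher too, with log2 fold changes of 0.91, 0.47 and 0.19, and each of these calls was lost without at least 1 library.

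In the other direction, the log2 fold change of nas-15 in the double mutant against N2 was -2.07 (SE 0.23, edgeR adjusted p = 3.64e-07). nas-38 and nas-4 were lower, with log2 fold changes of -0.74 and -0.53 (edgeR adjusted p = 0.0113 and 0.0399). Leaving out 1 library ended 5 of the 11 calls. nas-38 was lost without N2 replicate 1 (adjusted p = 0.106) and nas-5 without double-mutant replicate 2 (0.063). nas-4 was lost without double-mutant replicate 2 or 3 or N2 replicate 1 or 2 (up to 0.212), nas-12 without double-mutant replicate 3 or N2 replicate 1 or 3 (up to 0.101), and nas-20 without double-mutant replicate 2 or N2 replicate 1 or 2 (up to 0.153).

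Set against daf-2, the triple-labelled libraries had more transcript of nas-14, nas-28, nas-38 and nas-21, among others, and less of nas-3 and nas-20. Of the 27 tested members 15 were higher and 3 lower, 66.7% called, beside 47% of all tested genes (26.1% higher and 20.9% lower). With DESeq2 10 of the 15 and 2 of the 3 were called. The median log2 fold change was 0.62 over the members and 0.02 over all genes. The 15 include nas-24, which had 10 counts in the triple-labelled libraries only. They also include nas-13, for which no other genotype had 10 counts in every library. Both entered the test through the group in which they were high. In this comparison both groups carry the daf-2 label, and ribosomal RNA took 0.0431% ± 0.00245 of the reads of triple-labelled and 0.166% ± 0.0158 of those of daf-2 libraries (SD, n = 3). The sperm marker sum was 14.15 to 18.3 CPM in triple-labelled and 2.54 to 3.30 CPM in daf-2 libraries, and the pharynx gland sum 273.5 to 302.3 CPM in triple-labelled and 146.5 to 156.8 CPM in daf-2 libraries, so both were higher in the triple-labelled libraries without overlap. The part of these 3 measures in the differences was not tested.

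**Figure D4:**
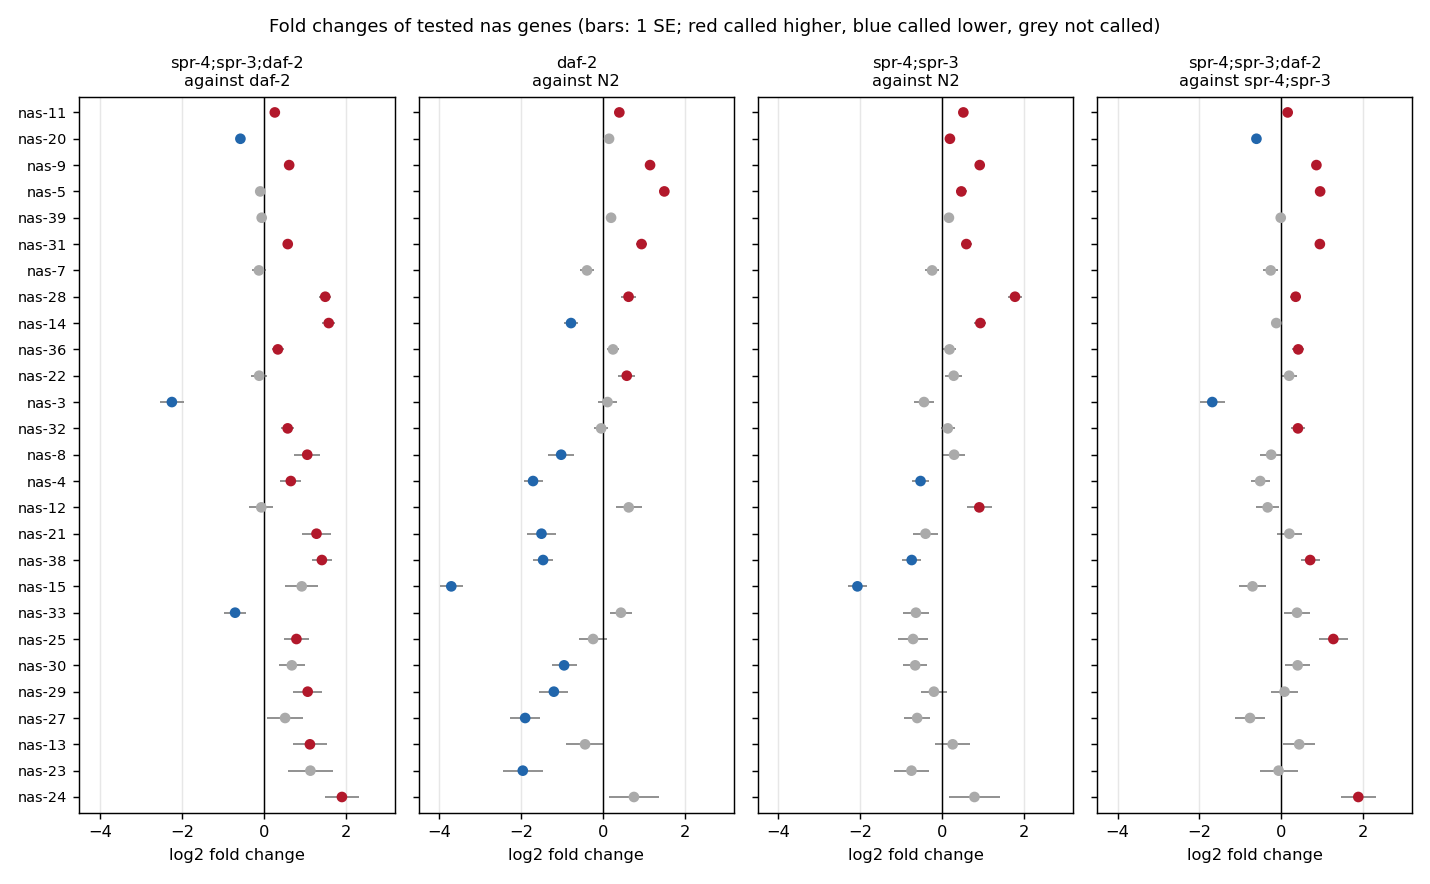
log2 fold changes of the 27 tested nas genes (down, by level per kilobase) in 4 comparisons (panels), with bars of 1 SE, red for called higher, blue for called lower and grey for not called. In the panel of triple-labelled against daf-2 libraries 15 points are red and 3 blue, and in that of daf-2 against N2 6 are red and 10 blue.

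nas-14 was higher in the triple-labelled than in the daf-2 libraries by 1.59 (SE 0.16, edgeR adjusted p = 7.51e-08). nas-28 was higher by 1.502 (SE 0.15, edgeR adjusted p = 9.6e-08). Both had levels that did not overlap between these genotypes in the values given above. The moult-linked gene nas-38 was higher by 1.42 (SE 0.25, edgeR adjusted p = 9.41e-05), and its triple-labelled libraries overlapped N2. nas-21 was higher by 1.29 (SE 0.35, edgeR adjusted p = 0.00514). Of the abundant members, nas-9 was higher by 0.62, nas-31 by 0.59 and nas-11 by 0.27 on the log2 scale. nas-32 was higher by 0.58. nas-15, which fell most in daf-2 against N2, had a log2 fold change of 0.93 (SE 0.40, edgeR adjusted p = 0.0626), and nas-23 had 1.14 (SE 0.55, edgeR adjusted p = 0.091). Both missed the threshold, which nas-23 passed without daf-2 replicate 3 (log2 fold change 1.84, adjusted p = 0.0342).

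nas-24 (WBGene00003543, chromosome V, 13769386 to 13771329) had 0.373, 0.319 and 0.464 CPM in the triple-labelled libraries and 0.102, 0.117 and 0.0828 CPM in daf-2, with 0.0674, 0.117 and 0.119 CPM in the spr double mutant and 0.0397, 0.0602 and 0.0807 CPM in N2. The triple-labelled libraries were above the other 9 for nas-24, with a log2 fold change against daf-2 of 1.91 (SE 0.41, edgeR adjusted p = 0.000783). Having 10 counts in no other group, it entered the test through the group in which it was high, here and in the comparisons with the double mutant and N2. nas-3 (WBGene00003522, chromosome V, 9478163 to 9479601) had 0.349, 0.293 and 0.244 CPM in the triple-labelled libraries and 1.38, 1.26 and 1.6 CPM in daf-2, with 0.54, 0.997 and 1.31 CPM in the spr double mutant and 1.47, 1.35 and 1.08 CPM in N2. nas-3 went the other way, with every triple-labelled library below the other 9 and a log2 fold change against daf-2 of -2.24 (SE 0.29, edgeR adjusted p = 2.3e-06). nas-20 had 23.4, 20.2 and 19.9 CPM in the triple-labelled libraries and 31.9, 28.9 and 33.4 CPM in daf-2, with 31.6, 33.6 and 31.6 CPM in the spr double mutant and 28.5, 26.6 and 29.8 CPM in N2. nas-20, the second most abundant member per kilobase, was also lowest in the triple-labelled libraries, at a log2 fold change against daf-2 of -0.57 (SE 0.069, edgeR adjusted p = 1.18e-06).

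Leaving out 1 library ended 7 of these 18 calls, and 11 were kept throughout. nas-8 (1.06) was lost without daf-2 replicate 2 (log2 fold change 0.67, adjusted p = 0.0537). nas-29 (1.07) was lost without triple-labelled replicate 2 or daf-2 replicate 1 or 2 (adjusted p up to 0.0944). nas-13 (1.13), tested through its high group, was lost without triple-labelled replicate 1 or 2 or daf-2 replicate 2 or 3 (up to 0.13). nas-4 (0.66) was lost without triple-labelled replicate 1 or daf-2 replicate 1 or 3 (up to 0.218), and nas-33, which was lower (-0.70) with overlapping groups, without triple-labelled replicate 2 or 3 or any daf-2 replicate (up to 0.209). nas-25 (0.80) and nas-36 (0.34) were lost without most single libraries, with the highest adjusted p without triple-labelled replicate 1 (0.289 and 0.305).

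Against the spr double mutant, the triple-labelled libraries had 10 members higher and 2 lower (44.4% called), beside 49.3% of all tested genes (25.8% higher and 23.5% lower). The median log2 fold change was 0.19 over the members and 0.01 over all genes. spr-3 itself was higher in the triple-labelled than in the double-mutant libraries by 0.83 on the log2 scale (edgeR adjusted p = 6.94e-08). The pharynx gland marker sum was 273.5 to 302.3 CPM in triple-labelled and 57.5 to 77.5 CPM in double-mutant libraries. Sums for neurons, glia and coelomocytes were also higher in the triple-labelled libraries without overlap. Those for intestine, hypodermis, pharynx muscle, excretory cell, oocytes and germ line, and embryo were lower without overlap. The hypodermis sum was 820 to 891 CPM in triple-labelled and 1357 to 1519 CPM in double-mutant libraries. Body wall muscle and sperm sums overlapped. The part of these sums in the counts was not tested. DESeq2 called 5 members higher, and without double-mutant replicate 1 the count was 6. nas-25 (WBGene00003544, chromosome II, 8826069 to 8828215) had 0.862, 0.426 and 0.561 CPM in the triple-labelled libraries, above all of the double mutant at 0.169, 0.322 and 0.269 CPM, with 0.307, 0.468 and 0.304 CPM in daf-2 and 0.437, 0.452 and 0.377 CPM in N2. The daf-2 libraries overlapped every other genotype. Its log2 fold change against the double mutant was 1.27 (SE 0.35, edgeR adjusted p = 0.00457). nas-24, tested through its high group, was higher by 1.88 (SE 0.42, edgeR adjusted p = 0.000927). nas-5 was higher by 0.95 (SE 0.12, edgeR adjusted p = 1.08e-06). nas-31 was higher by 0.94 and nas-9 by 0.85, whereas nas-3 and nas-20 were lower, with log2 fold changes of -1.69 and -0.61. nas-15 and nas-4 had log2 fold changes of -0.71 and -0.52 that did not pass (edgeR adjusted p = 0.0744 and 0.0649). The calls of nas-38, nas-36, nas-32, nas-28 and nas-11 (0.70, 0.41, 0.40, 0.35 and 0.15) were each lost without at least 1 library. The highest adjusted p was 0.0635 for nas-38 without triple-labelled replicate 2, 0.135 for nas-36 without triple-labelled replicate 1, and 0.156 for nas-11 without triple-labelled replicate 3. It was 0.129 for nas-32 and 0.13 for nas-28, both without double-mutant replicate 2.

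Between the triple-labelled and N2 libraries 10 members were higher and 6 lower (59.3% called), beside 68.7% of all tested genes (35.4% higher and 33.3% lower). nas-28, nas-9, nas-31, nas-5 and nas-14 were higher, by 2.13, 1.77, 1.53, 1.41 and 0.81 on the log2 scale. nas-24, tested through its high group, was higher by 2.67. nas-11, nas-32 and nas-22 were higher by 0.67, 0.54 and 0.47, and the nas-22 call was lost without triple-labelled replicate 1 or 2 or N2 replicate 2 or 3 (adjusted p up to 0.167). nas-36 was higher by 0.59 (SE 0.14, edgeR adjusted p = 0.000841), its one comparison that held without each library in turn. nas-15, nas-3, nas-27, nas-4 and nas-20 were lower, with log2 fold changes of -2.77, -2.13, -1.38, -1.05 and -0.42. Of these, nas-27 was tested through N2, where it was high. The moult-linked gene nas-38 had a log2 fold change of -0.04 (edgeR adjusted p = 0.863) and nas-21 one of -0.21 (edgeR adjusted p = 0.513), after differences of -1.46 and -1.501 between daf-2 and N2.

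Whether the daf-2 difference depended on the spr label was tested by the interaction, the log2 fold change of triple-labelled against double-mutant libraries minus that of daf-2 against N2. It was positive for 8 and negative for 5 of the 27 tested members, 48.1% called, beside 28.7% of all tested genes (14.1% and 14.6%). The 8 include nas-23, which entered the test through N2, where it was high. The median was 0.45 over the members and 0.01 over all genes. The spr-3 transcript had an interaction of 0.81 (SE 0.12, edgeR adjusted p = 2.7e-05). Its mean was 16.4 CPM in triple-labelled and 9.22 CPM in double-mutant libraries, so the spr label did not stand for the same spr-3 level in both. Ribosomal RNA averaged 0.166% of reads in daf-2 and at most 0.0431% in the other genotypes. The sperm marker sum was at most 3.30 CPM in daf-2 and at least 14.15 CPM elsewhere. The part of these measures in the interactions was not tested. For nas-15 the daf-2 difference was -0.71 with the spr label and -3.70 without it, an interaction of 3.00 (SE 0.47, edgeR adjusted p = 6.57e-05). For nas-38 it was 0.70 with the spr label and -1.46 without, opposite in sign, and the interaction was 2.16 (SE 0.34, edgeR adjusted p = 6.75e-05). nas-21, at 0.19 and -1.501, had an interaction of 1.70 (SE 0.46, edgeR adjusted p = 0.00889). For nas-4 the values were -0.52 and -1.71, with an interaction of 1.19 (SE 0.33, edgeR adjusted p = 0.00984).

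Negative interactions were called for nas-3, nas-20, nas-5, nas-9 and nas-11. nas-3 was lower with the spr label (-1.69) and had 0.11 without it (edgeR adjusted p = 0.696), an interaction of -1.80 (SE 0.38, edgeR adjusted p = 0.00138). nas-20 likewise had -0.61 with the label and 0.15 without it, an interaction of -0.76 (SE 0.097, edgeR adjusted p = 6.33e-06). nas-5, nas-9 and nas-11 had smaller negative interactions of -0.55, -0.30 and -0.25. Scaling by total counts, under which the median interaction over all genes was 0.128 and 77.5% of calls over all genes were positive (49.2% with TMM), left 2 negative calls among the members, those of nas-3 and nas-20. nas-5, nas-9 and nas-11 were not called under it (edgeR adjusted p = 0.0671, 0.224 and 0.23). Without N2 replicate 1 there were 5 positive and 2 negative calls, without triple-labelled replicate 1, double-mutant replicate 2 or N2 replicate 2 there were 3 negative ones, and DESeq2 gave 5 positive ones.

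**Figure D5:**
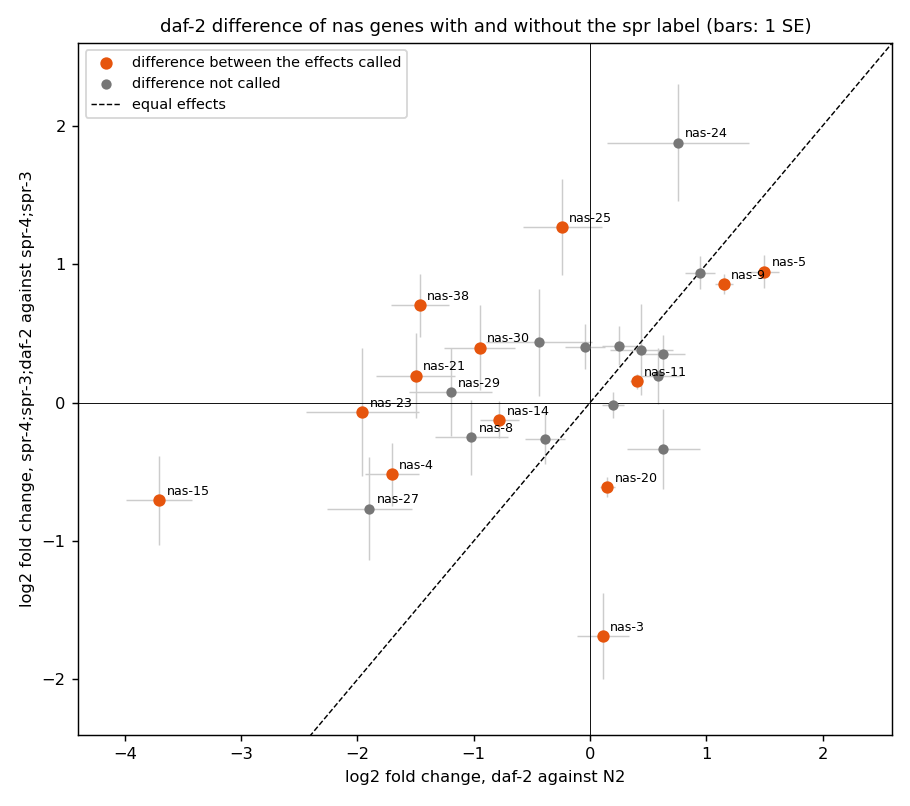
log2 fold change of triple-labelled against spr double mutant libraries (vertical) and of daf-2 against N2 (horizontal) for the 27 tested nas genes, with bars of 1 SE and a dashed line where both would be equal; orange marks members whose interaction was called. nas-15, nas-38 and nas-21 lie above the line at the left, and nas-3 and nas-20 lie below it.

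Astacins under other names were read from a list of 4 genes, of which hch-1, dpy-31 and toh-1 were found in the table. hch-1, the hatching enzyme, had 1.21, 1.94 and 2.00 CPM in the triple-labelled libraries, 3.17, 2.52 and 3.73 CPM in daf-2 and 0.742, 1.202 and 1.40 CPM in the double mutant, against 0.0397, 0 and 0.0807 CPM in N2, where it had 2, 0 and 3 reads. Every mutant library was above every N2 library (daf-2 against N2, edgeR adjusted p = 1.68e-10). No N2 library had 10 counts of hch-1, so it entered the test through the mutant groups, in which it was high. The summed level of the 8 embryo markers, all with reads in every genotype, was 23.8 to 24.97 CPM in the triple-labelled libraries, 30.8 to 33.5 in daf-2, 29.2 to 30.1 in the double mutant and 24.7 to 25.8 in N2. That of 10 late embryo genes, hch-1 among them, was highest in N2. It was 144.1 to 154.8 CPM in the triple-labelled libraries, 147.3 to 163.6 in daf-2, 156 to 171.6 in the double mutant and 183 to 195.7 in N2. The part of either sum in the hch-1 values was not tested. dpy-31, which processes cuticle procollagen, had 65.7, 65.0 and 67.7 CPM in the triple-labelled libraries and 47.8, 47.9 and 47.7 CPM in daf-2. It had 41.7, 42.0 and 38.99 CPM in the double mutant and 25.6, 26.3 and 29.1 CPM in N2, so no pair of genotypes overlapped. For dpy-31 the log2 fold change in triple-labelled against daf-2 libraries was 0.47 (SE 0.048, edgeR adjusted p = 1.17e-07), and in daf-2 against N2 it was 0.83 (SE 0.051, edgeR adjusted p = 1.19e-11). toh-1 was higher in the triple-labelled than in the daf-2 libraries by 1.32 (SE 0.085, edgeR adjusted p = 2.83e-10).

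Other secreted or membrane metalloproteases did not share one direction. Over all tested genes 27.4% were higher and 26.9% lower in daf-2 against N2. The shares were 26.1% and 20.9% in triple-labelled against daf-2, and 24.6% and 21.9% in the double mutant against N2. The counts below are to be read beside these shares. Of 7 tested matrix metalloproteases and their TIMP-like inhibitors, 6 were higher and 0 lower in triple-labelled against daf-2 libraries, and 5 were higher and 1 lower in daf-2 against N2. zmp-1, a matrix metalloprotease, was higher by 1.53 and 0.49 in these comparisons, and by 1.31 in the double mutant against N2. zmp-6 had a larger log2 fold change in triple-labelled against daf-2, at 2.21 (edgeR adjusted p = 0.000991). The gene called lower in daf-2 against N2 was zmp-2, at -1.05 (edgeR adjusted p = 3.53e-05). It was also lower in the double mutant against N2, at -0.49 (edgeR adjusted p = 0.0241). timp-1, an inhibitor, had 0.90 in daf-2 against N2 and 0.12 in triple-labelled against daf-2, of which the second did not pass (edgeR adjusted p = 0.115). Of 10 ADAM and ADAMTS genes 0 were higher and 8 lower in daf-2 against N2, led by adt-1 (-1.81), and 3 were higher and 3 lower in triple-labelled against daf-2. Of 21 tested neprilysins 3 were higher and 13 lower in daf-2 against N2, and 8 higher and 1 lower in triple-labelled against daf-2. Among the 4 proprotein convertases, which activate secreted precursors, 2 were higher in daf-2 against N2, 4 in the double mutant against N2 and 3 in triple-labelled against daf-2, and 0 were lower in each.

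Genes of the moult were counted beside nas-36 and nas-38. Over all tested genes 27.4% were higher and 26.9% lower in daf-2 against N2. The shares were 26.1% and 20.9% in triple-labelled against daf-2, and 24.6% and 21.9% in the double mutant against N2. Of 9 tested moulting regulators 0 were higher and 8 lower in daf-2 against N2, and 4 higher and 1 lower in triple-labelled against daf-2. Of 13 cuticle and protease-inhibitor genes of the moult, 1 was higher and 9 lower in daf-2 against N2, 2 were higher and 8 lower in the double mutant against N2, and 5 were higher and 4 lower in triple-labelled against daf-2. qua-1 had a log2 fold change of -3.89 in daf-2 against N2 and mlt-11 one of -1.82. nas-38 was called lower in daf-2 and in the double mutant against N2, and nas-36 was called in neither. The summed level of the 9 hypodermis markers, all with reads in every genotype, was 820 to 891 CPM in the triple-labelled libraries, 772 to 887 CPM in daf-2, 1357 to 1519 CPM in the double mutant and 1158 to 1236 CPM in N2. These markers include the adult collagens rol-6, bli-1 and col-19. A list of 6 adult collagens summed to 646 to 718, 592 to 716, 1163 to 1327 and 961 to 1042 CPM in the same order. Of these 6, 0 were higher and 6 lower in daf-2 against N2, and 1 was higher and 3 lower in the double mutant against N2. The part of either level in the nas values was not tested.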

How the data were processed

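The authors deposited raw, unscaled read counts for each gene in 12 libraries of whole worms. Per the labels' protocols, a stranded mRNA kit was used and read pairs were sequenced. STAR and featureCounts 1.5.1 are listed in the submitters' processing notes, with the build WBcel235. The sources used here do not give the strand setting or the treatment of reads with several matches. Gene positions and exon lengths come from Ensembl release 115 of WBcel235.

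Counts were fitted with edgeR 4.0.16 in R 4.3.3: filterByExpr with a minimum count of 10 (15764 genes), TMM scaling and a robust quasi-likelihood model over all 12 libraries (8 residual degrees of freedom). Tests are two-sided with Benjamini-Hochberg adjustment over all tested genes, called below 0.05, and SE is the absolute log2 fold change over the square root of F. CPM uses TMM-scaled totals. The p-values weigh a difference between genotypes against the spread between these samples, which are 3 pools of worms per genotype. Chi-square over degrees of freedom between replicates was 3.61 to 18.1, above what counting alone gives.

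The members, gene lists and naming rule were chosen with earlier results of these data known. Values in every library are given for up to 14 members called at 2-fold or more, without overlap of the groups, in a comparison changing 1 label, for the 3 members most abundant per kilobase, and for nas-6, nas-7, nas-36, nas-38 and nas-39. nas-13 and nas-8 ranked behind those 14. Alternatives were scaling by total counts or by RLE, dropping the filter or asking for 1 CPM in 6 libraries, DESeq2 1.42.0 or voom with limma 3.58.1 as the test, adding a replicate block, fitting only the groups compared, and leaving out each library. Figures used matplotlib 3.10.9.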

Additional observations from a re-analysis of the deposited data

Results flagged for a closer look

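By the edgeR interaction over all 12 libraries, 13 of the 27 tested nas genes were called (48.1%), beside 28.7% of all tested genes. For these 13 the difference between triple-labelled and daf-2 libraries was not the same as that between the spr double mutant and N2. The spr-3 transcript had an interaction of 0.81 too (edgeR adjusted p = 2.7e-05), and its part in the 13 was not tested. The interaction is on the log2 scale and has no samples of its own whose direction could be counted. The largest was nas-15 (3.00, edgeR adjusted p = 6.57e-05). nas-38 had 2.16 (edgeR adjusted p = 6.75e-05) and nas-21 had 1.70 (edgeR adjusted p = 0.00889). nas-4 had 1.19 (edgeR adjusted p = 0.00984). nas-3 had -1.80 (edgeR adjusted p = 0.00138) and nas-20 had -0.76 (edgeR adjusted p = 6.33e-06). These 6 were called whichever single library was left out.

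The other 7 were called with all libraries and lost without at least 1. nas-23, which entered the test through N2, where it was high, had 1.89 and adjusted p = 0.0433 by edgeR. It was lost without 9 of the libraries (up to 0.133 without triple-labelled replicate 1 or daf-2 replicate 1). nas-25 had 1.51 (edgeR adjusted p = 0.0243) and was lost without replicate 1 of any genotype (up to 0.0821 without the triple-labelled one). nas-30 had 1.34 (edgeR adjusted p = 0.0238) and was lost without replicate 3 of any mutant group or N2 replicate 2 (up to 0.0752 without triple-labelled replicate 3). nas-14 had 0.65 (edgeR adjusted p = 0.027) and was lost without 5 of the libraries, with 0.109 without N2 replicate 1. nas-5 had -0.55 (edgeR adjusted p = 0.0194) and was lost without double-mutant replicate 2 or 3 or N2 replicate 1 (up to 0.0743). nas-9 had -0.30 (edgeR adjusted p = 0.042) and was lost without 7 of the libraries (up to 0.126 without double-mutant replicate 2). nas-11 had -0.25 (edgeR adjusted p = 0.0172) and was lost without triple-labelled replicate 1 or N2 replicate 1 or 2 (up to 0.0565).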

How the results depend on the processing

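Over 3126 values of single members under the alternatives, 0 changed direction while called, 158 lost and 26 gained a call. Of 86 called member results 57 were called under every alternative run. Asking for at least 1 CPM in 6 libraries left 14 members tested, and the counts became 8 higher in triple-labelled against daf-2, 2 lower in daf-2 against N2, 1 lower in the double mutant against N2 and 2 positive interactions. DESeq2 gave 10 higher and 2 lower in triple-labelled against daf-2, 5 higher in triple-labelled against double mutant and 5 positive interactions, and total counts gave 2 negative interactions; the cause was not tested. Under total counts the share of all calls that were higher was 64% for triple-labelled against daf-2 (55.5% with TMM), 35% for the double mutant against N2 (53%) and 68.1% for triple-labelled against double mutant (52.3%). Leaving out 1 library gave 11 to 14 higher and 2 to 3 lower in triple-labelled against daf-2, 5 to 8 and 10 to 12 in daf-2 against N2, 6 to 8 and 1 to 5 in the double mutant against N2, 6 to 11 and 2 to 4 in triple-labelled against double mutant, 9 to 11 and 5 to 9 in triple-labelled against N2, and 5 to 8 positive and 2 to 5 negative interactions. The 4 lower members in triple-labelled against double mutant came without double-mutant replicate 2, and the 9 in triple-labelled against N2 without triple-labelled replicate 1.

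Samples sharing a replicate number were not more alike (median correlation of their deviations 0.0038 over 18 pairs, of which 2 were over 0.1). With 3 replicates a genotype this cannot exclude a shared batch, and the labels do not state a pairing. With the replicate block, triple-labelled against daf-2 had 12 higher and 2 lower, daf-2 against N2 6 and 10, the double mutant against N2 8 and 2, triple-labelled against double mutant 9 and 2, triple-labelled against N2 10 and 6, and the interaction 8 positive and 4 negative. The block ended 7 calls, each with an adjusted p of 0.0531 to 0.0585, and added 0. Depth limits the low members: tested members had between 75 and 34538 reads over all libraries, and those of nas-23 in daf-2 numbered 1 to 6 a library.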

Other observations

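Some members that failed the filter differed between genotypes in the fit without it. The share of all genes called in that fit was not counted. nas-10 had 11, 10 and 15 reads in the triple-labelled libraries and 7, 11 and 6 in daf-2, with 1, 5 and 2 in the spr double mutant and 3, 3 and 8 in N2. It was higher in the triple-labelled libraries than in the double mutant by 1.81 on the log2 scale (edgeR without a filter, adjusted p = 0.00886) and than in N2 by 1.30 (adjusted p = 0.0284). nas-1 had 5, 4 and 1 reads in the triple-labelled libraries and 8, 2 and 7 in daf-2, with 4, 2 and 2 in the double mutant and 9, 11 and 8 in N2. Its log2 fold change between triple-labelled and N2 libraries was -1.49 (edgeR without a filter, adjusted p = 0.0307). nas-18 had 0, 0 and 0 reads in the triple-labelled libraries and 1, 0 and 2 in daf-2, with 1, 2 and 2 in the double mutant and 2, 2 and 2 in N2. With at most 2 reads a library no fold is given, and triple-labelled against N2 had an adjusted p of 0.0469 (edgeR without a filter). A triple-labelled library at 0 could have a level of up to 0.0699 to 0.0798 CPM. The N2 libraries had 0.0397 to 0.0602 CPM of nas-18, so this difference is not resolved. nas-19 was read in 2 triple-labelled, 1 daf-2 and 2 double-mutant libraries and in 0 N2 libraries, at 1 to 3 reads each.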
